A study of Homo sapiens with 4 samples.

Results

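The genes described here are the potassium channel subunits measured in A375 and SK-MEL-28, established human melanoma cell lines. They were chosen by name, as every gene in the deposited expression table whose symbol is KCN, 1 to 3 further letters and a number, and 28 of the 18175 listed genes and loci met that rule. Expression had been measured by RNA sequencing in 4 libraries, 1 each from SK-MEL-28 cells treated with siLINC01291, SK-MEL-28 cells treated with siNC, A375 cells treated with siLINC01291 and A375 cells treated with siNC. The agent siLINC01291 is a small interfering RNA against the long non-coding RNA LINC01291, and siNC is by its name the negative control; all cells grew in Dulbecco's modified Eagle medium with fetal bovine serum, and the treatment label also lists EL, which it does not explain. Each line is a single line and each group a single library, so a difference within a line has no replicate check, and the 2 libraries of a line, which differ in the siRNA, are the only replication of the contrast between the lines.

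Potassium channels are membrane pores that let potassium ions leave the cell down their gradient and so set or restore the membrane potential. Pore-forming alpha subunits differ in what opens them: voltage, intracellular calcium, or, for inward rectifiers and K2P (tandem pore domain) channels, neither, which makes them carriers of resting current. Silent subunits form working channels only together with alpha subunits of the Kv2 family, and auxiliary subunits change the gating, surface traffic or stability of the pores they bind. In melanocytes and melanoma cells potassium currents have been studied for their part in membrane potential, cell volume, migration and calcium entry. By class, the 28 members were 6 voltage-gated alpha subunits, 4 silent subunits, 3 calcium-activated alpha subunits, 4 inward rectifiers, 5 K2P subunits and 6 auxiliary subunits.

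The promoters of 4 members are shown, picked by their difference between the lines in the values that follow. Only members with a single RefSeq window and an FPKM (reads scaled by gene length and library total) of at least 1 in any library were considered. Among these, KCNN2 and KCNK13 had the highest log2 difference, SK-MEL-28 minus A375, and KCNK1 and KCNN4 the lowest. KCNAB2, KCNN3 and KCNE4 also stood far apart but did not meet that rule. KCNN2 and KCNK13 were near 0 in A375, KCNK1 was near 0 in SK-MEL-28, and KCNN4 was the leading member of A375. Each is the RefSeq window on GRCh38.p14 from 250 bases before to 50 after a gene start, written 5′ to 3′ on the strand of the gene, with the E-box CACGTG, the GC box GGGCGG and the TATA box TATAAA in capitals, on either strand.
KCNN2 promoter, chr5:114361820-114362119, plus strand: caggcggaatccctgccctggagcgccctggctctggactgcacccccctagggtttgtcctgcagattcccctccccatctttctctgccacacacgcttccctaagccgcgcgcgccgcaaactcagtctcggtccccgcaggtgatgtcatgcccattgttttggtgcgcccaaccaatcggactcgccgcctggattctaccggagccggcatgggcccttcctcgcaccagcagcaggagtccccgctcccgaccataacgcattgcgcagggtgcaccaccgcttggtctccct
KCNK13 promoter, chr14:90061744-90062043, plus strand: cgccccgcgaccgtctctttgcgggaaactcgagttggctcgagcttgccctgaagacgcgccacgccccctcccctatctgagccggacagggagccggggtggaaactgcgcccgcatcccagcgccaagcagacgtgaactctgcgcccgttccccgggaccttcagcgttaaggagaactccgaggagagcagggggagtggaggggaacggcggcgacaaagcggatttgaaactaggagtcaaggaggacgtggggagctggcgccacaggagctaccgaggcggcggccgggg
KCNK1 promoter, chr1:233613856-233614155, plus strand: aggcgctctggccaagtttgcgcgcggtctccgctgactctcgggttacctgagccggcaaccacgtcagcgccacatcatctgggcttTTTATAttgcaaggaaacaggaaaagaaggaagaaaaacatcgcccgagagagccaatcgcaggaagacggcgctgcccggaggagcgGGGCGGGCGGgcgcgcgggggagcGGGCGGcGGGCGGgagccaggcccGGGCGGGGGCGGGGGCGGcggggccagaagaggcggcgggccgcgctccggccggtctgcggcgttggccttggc
KCNN4 promoter, chr19:43780924-43781223, minus strand: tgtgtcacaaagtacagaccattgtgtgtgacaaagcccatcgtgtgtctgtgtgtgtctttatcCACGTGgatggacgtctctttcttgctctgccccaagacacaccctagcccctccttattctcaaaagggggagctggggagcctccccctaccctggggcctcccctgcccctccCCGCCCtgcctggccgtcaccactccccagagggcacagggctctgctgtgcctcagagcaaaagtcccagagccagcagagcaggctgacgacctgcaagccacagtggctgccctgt

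The KCNK1 window held 7 matches to GGGCGG, some of them overlapping, and 1 to TATAAA. The KCNN4 window held 1 match each to CACGTG and GGGCGG, and the KCNN2 and KCNK13 windows held no match to any motif searched. RefSeq windows were at hand for 22 of the 28 members, 34 windows in all, since several members have more than 1 start. On both strands and with overlaps counted, GGGCGG was present in 52.9% of these 34 windows and in 45.0% of all 35116 windows of the same length, CACGTG in 11.8% and 7.26%, CATGTG in 5.88% and 11.1%, TGAGTCA in 2.94% and 4.95%, and TATAAA in 8.82% and 11.5%. Median GC content was 64.8% in the members' windows and 58.7% in all windows. A match is a stretch of letters and not a known binding site.

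The libraries held 29351240 to 31815336 counts, and 3 counts, the limit that a count of 0 allows, corresponded to 0.0943 to 0.102 CPM, counts scaled to the library total. The targeted transcript was measured at 304 counts in siLINC01291 against 827 in siNC in A375, and 454 in siLINC01291 against 998 in siNC in SK-MEL-28, which is log2 -1.35 over both lines (SE 0.13, adjusted p = 0.00650, edgeR's quasi-likelihood test). Of all genes tested, 35.2% were called higher and 35.5% lower in SK-MEL-28 than in A375. Of 10 melanocyte lineage markers, all 10 were higher in SK-MEL-28. Their summed FPKM (reads scaled by gene length and library total) was 1943 and 1624 in SK-MEL-28 and 135 and 95.4 in A375 (siLINC01291 and siNC in both lines). SOX10, a transcription factor of the lineage, was at 80.1 to 147 FPKM in every library, whereas the melanosomal genes MLANA had 74 and 77 counts and PMEL 250 and 186 counts in A375 siLINC01291 and A375 siNC. Of 6 markers of dedifferentiated melanoma, 5 were lower and 1 was higher in SK-MEL-28, and they summed to 13.3 (siLINC01291) and 27.6 FPKM (siNC) in SK-MEL-28, against 208 (siLINC01291) and 222 FPKM (siNC) in A375. Markers of other cell types were few: 1 of 6 fibroblast genes was listed (LUM, higher in SK-MEL-28), with 2 of 5 for keratinocytes (KRT10 and KRT14), 1 of 5 for leukocytes (LYZ) and 2 of 5 for neurons (TUBB3 and SYT1); these 5 were lower in SK-MEL-28. These lists summed to 7.84 to 8.07, 18.0 to 19.9, 0.0787 to 0.118 and 0.482 to 0.562 FPKM in SK-MEL-28, against 3.25 to 3.74, 33.3 to 35.0, 1.57 to 1.94 and 1.68 to 1.71 FPKM in A375. With siLINC01291 over both lines, 2 markers of the dedifferentiated list, JUN among them, were lower, and no marker of the other lists was called. The markers and the members moved with the same contrast; with 2 lines, the line and its melanocytic state cannot be told apart, and the part of the other markers was not tested. In bulk RNA, fewer cells that express a gene and less RNA per cell cannot be told apart either.

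Most subunits were expressed at a low level, and a different one led in each line. An FPKM of at least 1 was reached by 17 of the 28 members in any library, by 11 and 10 in SK-MEL-28 siLINC01291 and SK-MEL-28 siNC, and by 10 and 9 in A375 siLINC01291 and A375 siNC. Only KCNAB2, KCNN4, KCNQ5 and KCNS3 reached it in all 4 libraries, and 11 members reached it in none. In SK-MEL-28 the auxiliary subunit KCNAB2 led with 67.0% (siLINC01291) and 68.3% (siNC) of the members' summed FPKM, followed by KCNQ5 with 5.41% and 4.76%. In A375 the calcium-activated channel KCNN4 led with 44.5% (siLINC01291) and 43.0% (siNC), followed by the silent subunit KCNG1, which held 14.8% in siNC. The members together summed to 88.9 (siLINC01291) and 75.7 FPKM (siNC) in SK-MEL-28, against 55.5 (siLINC01291) and 50.4 FPKM (siNC) in A375. Without KCNAB2 the order turned: the other members summed to 29.3 (siLINC01291) and 24.0 FPKM (siNC) in SK-MEL-28, against 54.3 (siLINC01291) and 49.4 FPKM (siNC) in A375. FPKM rests on the gene length the authors used, which for KCNAB2 was 17329 bases, 1.82 times the exon length in GENCODE 29; for the other members that ratio was 0.908 to 1.10. Comparisons of a gene with itself across libraries do not depend on the length.

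**Figure D1:**
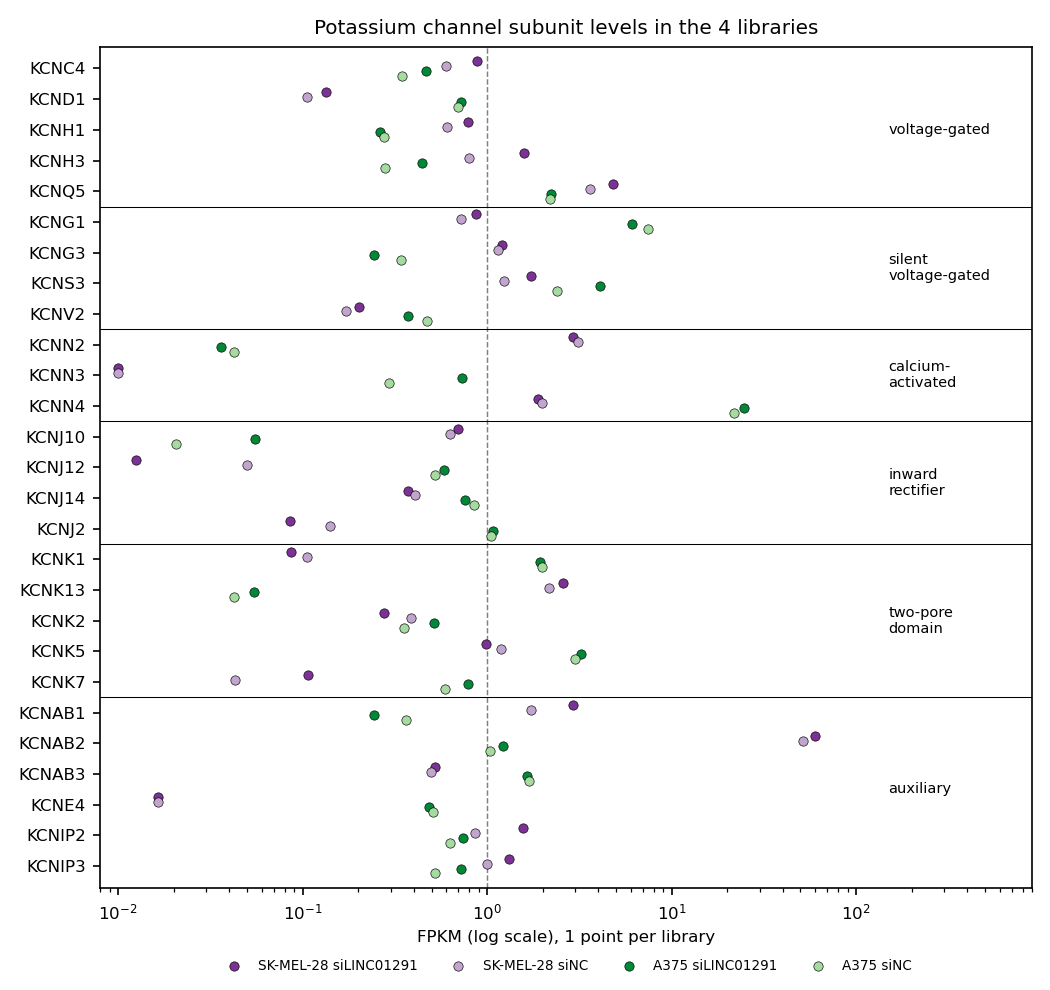
FPKM of 27 of the subunits on a log axis, 1 point per library, ordered by class; the dashed line marks 1 FPKM. KCNAB2 in SK-MEL-28 (59.6 and 51.7) and KCNN4 in A375 (24.7 and 21.7) stand to the right of all other points, and most members have the points of the 2 lines apart.

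Over both siRNAs, 26 of the 28 members differed between SK-MEL-28 and A375 at an adjusted p under 0.05 in edgeR's quasi-likelihood test with the siRNA as a term, 92.9% of the members beside 70.7% of the 16207 genes tested. Of these, 12 were higher in SK-MEL-28, beside 35.2% of all genes, and 14 were lower, beside 35.5%. A call together with at least a 2-fold difference was made for 22 members, 78.6% beside 37.2% of all genes. Between the siNC libraries alone, with no test, 21 members differed at least 2-fold, 75.0% beside 38.0%. The median size of the difference was 2.29 on the log2 scale for the members and 0.72 for all genes, and the median signed difference was -0.54 for the members and -0.02 for all genes. A gene near 0 in 1 line could enter the table and the fit only through the other line, so these counts describe the listed members and support no statement on potassium channels as a family. KCNK2 was among the 2 members without a call.

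**Figure D2:**
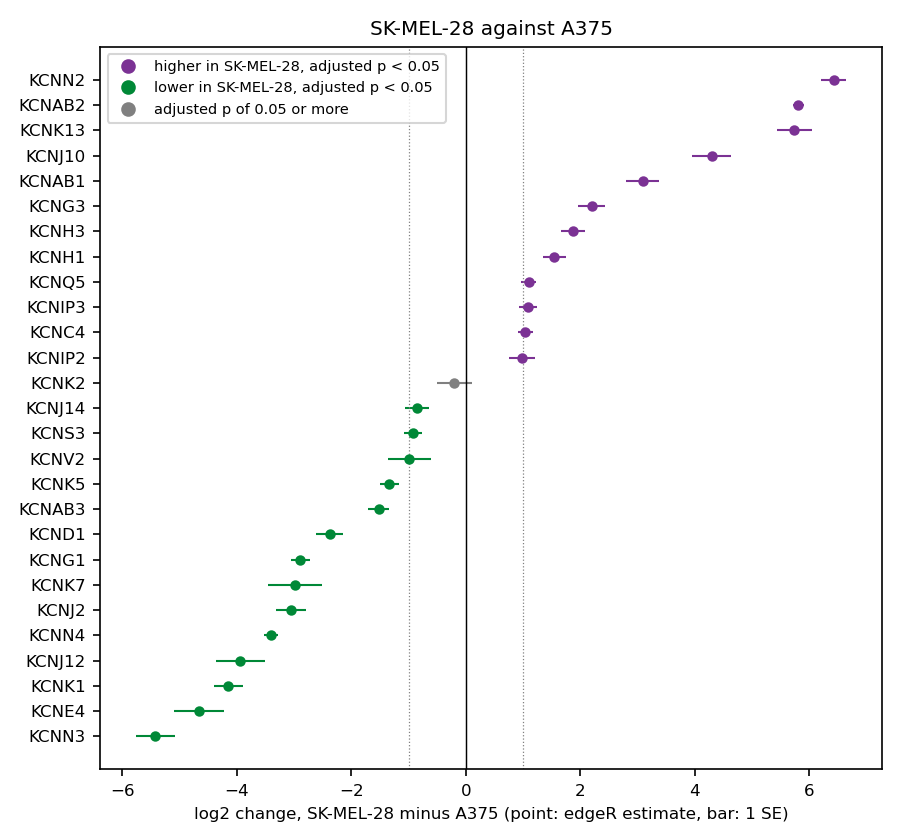
Log2 difference of 27 of the subunits, SK-MEL-28 minus A375, over both siRNAs; points are edgeR estimates, bars 1 SE, and dotted lines mark 2-fold. The values run from 6.43 for KCNN2 to -5.43 for KCNN3, and the grey point, KCNK2, has an adjusted p above 0.05.

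Of the 6 voltage-gated alpha subunits, 4 were higher in SK-MEL-28 and 1 was lower. KCNQ5, which carries a slow subthreshold current in neurons and smooth muscle, had an FPKM of 4.81 (siLINC01291) and 3.60 (siNC) in SK-MEL-28, against 2.23 (siLINC01291) and 2.20 (siNC) in A375, 2.14-fold higher in SK-MEL-28 (log2 1.10, SE 0.13). KCNH3, an EAG-like channel known from the forebrain, had 1.59 (siLINC01291) and 0.800 (siNC) in SK-MEL-28, against 0.446 (siLINC01291) and 0.280 (siNC) in A375, 3.67-fold higher (log2 1.88, SE 0.20). KCNH1, the ether-à-go-go channel, is found mainly in brain and ectopically in many tumours. It had an FPKM of 0.791 (siLINC01291) and 0.606 (siNC) in SK-MEL-28, against 0.262 (siLINC01291) and 0.277 (siNC) in A375, 2.92-fold higher in SK-MEL-28 (log2 1.55, SE 0.20). KCNC4, a fast channel that inactivates quickly, had 0.880 (siLINC01291) and 0.601 (siNC) in SK-MEL-28, against 0.467 (siLINC01291) and 0.347 (siNC) in A375, 2.06-fold higher (log2 1.04, SE 0.13). KCND1, a pore of transient A-type currents, went the other way, with 0.134 (siLINC01291) and 0.106 (siNC) in SK-MEL-28, against 0.726 (siLINC01291) and 0.695 (siNC) in A375, 5.20-fold lower in SK-MEL-28 (log2 -2.38, SE 0.24). The adjusted p of these 5 ran from 6.35e-05 for KCND1 to 0.000219 for KCNH1. KCNQ5 was the most abundant of the class per length in both lines.

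Among the 4 silent subunits, which modify Kv2 channels, 3 were lower in SK-MEL-28 and 1 was higher. KCNG1 had an FPKM of 0.872 (siLINC01291) and 0.727 (siNC) in SK-MEL-28, against 6.09 (siLINC01291) and 7.45 (siNC) in A375, 7.42-fold lower (log2 -2.89, SE 0.17, adjusted p = 3.22e-06). KCNS3 had 1.73 (siLINC01291) and 1.24 (siNC) in SK-MEL-28, against 4.11 (siLINC01291) and 2.39 (siNC) in A375, 1.90-fold lower (log2 -0.93, SE 0.16, adjusted p = 0.00134). KCNV2, known from retinal photoreceptors, had 0.203 (siLINC01291) and 0.171 (siNC) in SK-MEL-28, against 0.374 (siLINC01291) and 0.474 (siNC) in A375, on 13 and 11 counts in SK-MEL-28 and 26 and 32 in A375. Its difference (log2 -0.99, SE 0.37, adjusted p = 0.0452) lost its call in DESeq2 (adjusted p = 0.490). KCNG3 was higher in SK-MEL-28, with 1.21 (siLINC01291) and 1.15 (siNC) in SK-MEL-28, against 0.245 (siLINC01291) and 0.339 (siNC) in A375, 4.60-fold (log2 2.20, SE 0.24, adjusted p = 8.85e-05). On FPKM the lines did not overlap for any of the 4. Each line has few libraries, and the share of all genes without overlap was not counted. The KCNV2 ratio of SK-MEL-28 to A375 was 0.619 with siLINC01291, and its interval for counting error, 0.292 to 1.25, includes 1. With siNC that ratio was 0.409 (interval 0.186 to 0.833).

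The 3 calcium-activated subunits, whose calcium sensor is bound calmodulin, included both the highest and the lowest difference among the 28 members. KCNN2, a small-conductance channel known from the brain and heart, had an FPKM of 2.92 (siLINC01291) and 3.10 (siNC) in SK-MEL-28, against 0.0359 (siLINC01291) and 0.0423 (siNC) in A375. Its counts were 525 (siLINC01291) and 558 (siNC) in SK-MEL-28, against 7 (siLINC01291) and 8 (siNC) in A375, 86.0-fold higher in SK-MEL-28 (log2 6.43, SE 0.22, adjusted p = 2.67e-07). KCNN3, its close relative, showed the opposite pattern, with counts of 4 (siLINC01291) and 4 (siNC) in SK-MEL-28, against 316 (siLINC01291) and 124 (siNC) in A375, 43.0-fold lower (log2 -5.43, SE 0.34, adjusted p = 4.72e-06). Its ratio of SK-MEL-28 to A375 was 0.0157 (95% interval 0.00424 to 0.0405) with siLINC01291 and 0.0384 (95% interval 0.0103 to 0.101) with siNC. KCNN4, the intermediate-conductance channel known from red cells and T cells, had an FPKM of 1.88 (siLINC01291) and 1.97 (siNC) in SK-MEL-28, against 24.7 (siLINC01291) and 21.7 (siNC) in A375, 10.6-fold lower in SK-MEL-28 (log2 -3.40, SE 0.12, adjusted p = 3.36e-07). The main small-conductance subunit was KCNN2 in SK-MEL-28 and KCNN3 in A375, with KCNN4 above both in A375 and second to KCNN2 in SK-MEL-28 on the FPKM scale. The class summed to 4.81 (siLINC01291) and 5.08 FPKM (siNC) in SK-MEL-28, against 25.5 (siLINC01291) and 22.0 FPKM (siNC) in A375.

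Of the 4 inward rectifiers, 3 were lower in SK-MEL-28 and 1 was higher, and only KCNJ2 reached an FPKM of 1 in any library. KCNJ10, the channel by which glia take up potassium and which is also found in the melanocyte-derived intermediate cells of the inner ear, was higher in SK-MEL-28. Its counts were 128 (siLINC01291) and 116 (siNC) in SK-MEL-28, against 11 (siLINC01291) and 4 (siNC) in A375, 19.6-fold (log2 4.29, SE 0.33, adjusted p = 1.55e-05), with a ratio of 14.4 (95% interval 7.78 to 29.6) in the siLINC01291 libraries and of 34.5 (95% interval 13.1 to 129) in the siNC libraries. KCNJ2, a main carrier of the resting current of heart and skeletal muscle, had an FPKM of 0.0853 (siLINC01291) and 0.140 (siNC) in SK-MEL-28, against 1.07 (siLINC01291) and 1.05 (siNC) in A375, 8.30-fold lower (log2 -3.05, SE 0.26, adjusted p = 2.43e-05). KCNJ12, of the same subfamily, had counts of 2 (siLINC01291) and 8 (siNC) in SK-MEL-28, against 102 (siLINC01291) and 88 (siNC) in A375. With so few counts in SK-MEL-28, the ratio of SK-MEL-28 to A375 was 0.0243 (95% interval 0.00290 to 0.0899) with siLINC01291 and 0.108 (95% interval 0.0453 to 0.223) with siNC, intervals that, like all those given for a pair of libraries, cover counting error only (over both, log2 -3.94, SE 0.43, adjusted p = 0.000100). KCNJ12 is uncertain because near-identical copies of the gene can share its reads. KCNJ14 had an FPKM of 0.374 (siLINC01291) and 0.405 (siNC) in SK-MEL-28, against 0.755 (siLINC01291) and 0.846 (siNC) in A375, 1.81-fold lower (log2 -0.85, SE 0.21, adjusted p = 0.00730), a call that DESeq2 did not make (adjusted p = 0.229).

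Of the 5 K2P subunits, 3 were lower in SK-MEL-28, 1 was higher and 1 had no call. KCNK13, a leak channel known from microglia, had an FPKM of 2.57 (siLINC01291) and 2.18 (siNC) in SK-MEL-28, against 0.0547 (siLINC01291) and 0.0423 (siNC) in A375. On 4 and 3 counts in A375 siLINC01291 and A375 siNC, the ratio of SK-MEL-28 to A375 was 53.5 (95% interval 20.5 to 199) with siLINC01291 and 58.3 (95% interval 19.6 to 286) with siNC (over both, log2 5.74, SE 0.31, adjusted p = 2.29e-06). KCNK1, a weak and widely expressed leak channel, had 0.0867 (siLINC01291) and 0.106 (siNC) in SK-MEL-28, against 1.93 (siLINC01291) and 1.99 (siNC) in A375, 17.7-fold lower in SK-MEL-28 (log2 -4.15, SE 0.25, adjusted p = 4.11e-06). KCNK5, a leak channel opened by alkaline pH, had 0.988 (siLINC01291) and 1.18 (siNC) in SK-MEL-28, against 3.23 (siLINC01291) and 2.99 (siNC) in A375, 2.52-fold lower (log2 -1.33, SE 0.17, adjusted p = 0.000210). KCNK7, for which no current is established, had counts of 5 (siLINC01291) and 2 (siNC) in SK-MEL-28, against 40 (siLINC01291) and 29 (siNC) in A375, a ratio of 0.155 (95% interval 0.0477 to 0.392) with siLINC01291 and 0.0820 (95% interval 0.00949 to 0.324) with siNC (over both, log2 -2.98, SE 0.47, adjusted p = 0.000757). KCNK2, a channel opened by membrane stretch, had an FPKM of 0.277 (siLINC01291) and 0.387 (siNC) in SK-MEL-28, against 0.518 (siLINC01291) and 0.353 (siNC) in A375, with lines that overlapped (log2 -0.20, SE 0.30, adjusted p = 0.572).

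Among the 6 auxiliary subunits, 4 were higher in SK-MEL-28 and 2 were lower. KCNAB2, a cytoplasmic beta subunit of the aldo-keto reductase fold that binds voltage-gated pores, had counts of 30385 (siLINC01291) and 26428 (siNC) in SK-MEL-28, against 675 (siLINC01291) and 555 (siNC) in A375, 56.2-fold higher in SK-MEL-28 (log2 5.81, SE 0.09, adjusted p = 2.80e-08). It made up 85.3% (siLINC01291) and 86.4% (siNC) of all member counts in SK-MEL-28, against 7.51% in A375 siNC. The other beta subunits split: KCNAB1 had an FPKM of 2.93 (siLINC01291) and 1.74 (siNC) in SK-MEL-28, against 0.243 (siLINC01291) and 0.364 (siNC) in A375, 8.50-fold higher (log2 3.09, SE 0.29, adjusted p = 4.68e-05). Its ratio of SK-MEL-28 to A375 was 13.8 (95% interval 10.4 to 18.6) with siLINC01291 and 5.39 (95% interval 4.20 to 6.99) with siNC. KCNAB3 had 0.521 (siLINC01291) and 0.498 (siNC) in SK-MEL-28, against 1.64 (siLINC01291) and 1.69 (siNC) in A375, 2.87-fold lower (log2 -1.52, SE 0.18, adjusted p = 0.000144). Of the calcium-binding partners of A-type channels, KCNIP3, which can also act as a transcriptional repressor, had an FPKM of 1.32 (siLINC01291) and 1.00 (siNC) in SK-MEL-28, against 0.719 (siLINC01291) and 0.523 (siNC) in A375, 2.13-fold higher (log2 1.09, SE 0.15, adjusted p = 0.000418). KCNIP2, known from the heart, had 1.57 (siLINC01291) and 0.859 (siNC) in SK-MEL-28, against 0.738 (siLINC01291) and 0.627 (siNC) in A375, 1.97-fold higher (log2 0.98, SE 0.23, adjusted p = 0.00532), and lost its call in DESeq2 (adjusted p = 0.126). KCNE4, a single-pass subunit that inhibits several voltage-gated channels, had counts of 2 (siLINC01291) and 2 (siNC) in SK-MEL-28, against 64 (siLINC01291) and 65 (siNC) in A375. Its ratio of SK-MEL-28 to A375 was 0.0387 (95% interval 0.00459 to 0.146) with siLINC01291 and 0.0366 (95% interval 0.00434 to 0.138) with siNC (over both, log2 -4.66, SE 0.44, adjusted p = 4.33e-05).

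**Figure D3:**
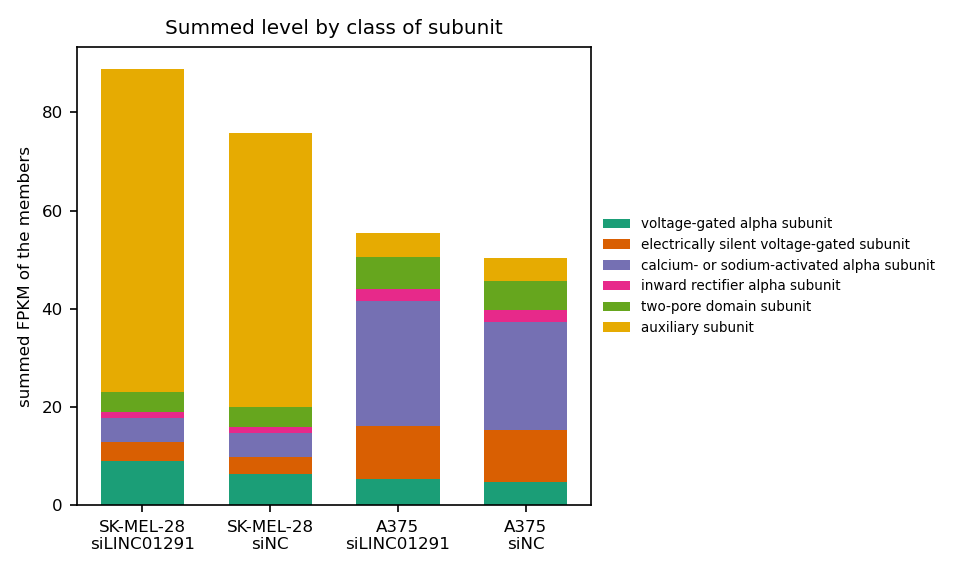
Summed FPKM of the 28 subunits in each library, stacked by class of subunit. Auxiliary subunits, in SK-MEL-28 mostly KCNAB2, make up 65.96 and 55.8 FPKM in SK-MEL-28 and 5.04 and 4.75 FPKM in A375, and calcium-activated subunits, in A375 mostly KCNN4, 4.81 and 5.08 FPKM in SK-MEL-28 and 25.5 and 22.0 FPKM in A375 (siLINC01291 and siNC in each line).

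Several members share exons with other genes, and the labels do not say whether strand was used in counting, so the assignment of their reads is uncertain. In GENCODE 29 on GRCh38, opposite-strand genes cover 36.9% of the exons of KCNH1 (1:210676823-211134180), 16.5% of KCNJ14 (19:48455509-48466980), 12.2% of KCNIP2 (10:101825974-101843920) and 7.98% of KCNG1 (20:51003656-51023129). Genes on the same strand, whose reads strand would not separate either, include AL590132.1 over 16.1% of the exons of KCNH1, GRWD1 over 8.06% of KCNJ14 and AC104581.2 over 5.50% of KCNAB3. For KCNAB2 (1:5991466-6101193) the overlap, with NPHP4, was 1.16%, and the exons of KCNK13, KCNK1, KCNN3, KCNN4 and KCNE4 overlapped none. Of the overlapping genes behind these shares, GRWD1 and NPHP4 were listed in the deposited expression table, and the others were not.

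With siLINC01291 set against siNC over both lines, no member passed the test: 0 of 28 had an adjusted p under 0.05 in edgeR, beside 1.47% of all 16207 genes, and 0 had one in DESeq2, where the adjusted p of most members was not given. At an unadjusted p under 0.05 there were 6 members in edgeR, 21.4% beside 16.8% of all genes, and 0 in DESeq2, beside 6.75% of all genes. The 6 were higher with siLINC01291, beside 8.56% of all genes higher at that level. The median log2 change was 0.12 over the 28 members and 0.01 over all genes, with 17 members above 0 and 11 below.

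The lowest adjusted p belonged to KCNN3 (log2 1.17, SE 0.26, adjusted p = 0.0800). It had 316 counts in siLINC01291 against 124 in siNC in A375, and 4 in siLINC01291 against 4 in siNC in SK-MEL-28. The difference stood in A375, where the ratio of siLINC01291 to siNC was 2.39 (95% interval 1.94 to 2.97), while 4 counts in each SK-MEL-28 library allow a ratio of 0.182 to 5.25. KCNH3 had 64 counts in siLINC01291 against 39 in siNC in A375, and 210 in siLINC01291 against 106 in siNC in SK-MEL-28 (log2 0.83, SE 0.20, adjusted p = 0.103). KCNS3 had 410 counts in siLINC01291 against 232 in siNC in A375, and 159 in siLINC01291 against 114 in siNC in SK-MEL-28 (log2 0.60, SE 0.16, adjusted p = 0.126). KCNC4 had 389 counts in siLINC01291 against 280 in siNC in A375, and 675 in siLINC01291 against 462 in siNC in SK-MEL-28 (log2 0.45, SE 0.13, adjusted p = 0.143). These 3 and the KCNIP pair were above siNC in both lines. KCNIP2 had 80 counts in siLINC01291 against 66 in siNC in A375, and 157 in siLINC01291 against 86 in siNC in SK-MEL-28 (log2 0.54, SE 0.23, adjusted p = 0.284), and KCNIP3 had 180 counts in siLINC01291 against 127 in siNC in A375, and 304 in siLINC01291 against 232 in siNC in SK-MEL-28 (log2 0.38, SE 0.15, adjusted p = 0.271). None of the 6 is called, and a p above the threshold does not show that their levels were the same.

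Within A375, where 1 library was set against 1, the siLINC01291 library differed at least 2-fold from siNC for 2 members, 7.14% beside 2.13% of all genes. They were KCNN3 and KCNJ10, which had 11 counts in siLINC01291 and 4 in siNC, a ratio of 2.58 (95% interval 0.765 to 11.1). Within SK-MEL-28 it was 1 member, 3.57% beside 4.07% of all genes: KCNJ12, with 2 counts in siLINC01291 and 8 in siNC, a ratio of 0.244 (95% interval 0.0253 to 1.22). The counting intervals of KCNJ10 and KCNJ12 include 1. Some well-counted members had an interval outside 1 without such a fold in 1 line. KCNAB2, KCNC4, KCNS3, KCNIP3 and KCNH3 had an interval above 1 in both lines, also without such a fold. KCNG1 had a ratio of siLINC01291 to siNC of 0.791 (95% interval 0.728 to 0.859) in A375 and of 1.17 (95% interval 0.908 to 1.51) in SK-MEL-28. KCNQ5 had 0.985 (95% interval 0.875 to 1.11) in A375 and 1.30 (95% interval 1.19 to 1.42) in SK-MEL-28. For KCNAB2, the leading member of SK-MEL-28, it was 1.14 (95% interval 1.02 to 1.28) in A375 and 1.12 (95% interval 1.10 to 1.14) in SK-MEL-28, and for KCNN4, the leading member of A375, 1.10 (95% interval 1.04 to 1.17) in A375 and 0.928 (95% interval 0.756 to 1.14) in SK-MEL-28.

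KCNAB1 was on opposite sides in the 2 lines. It had 53 counts in siLINC01291 against 77 in siNC in A375, and 589 in siLINC01291 against 349 in siNC in SK-MEL-28, ratios of 0.646 (95% interval 0.447 to 0.929) in A375 and of 1.65 (95% interval 1.44 to 1.89) in SK-MEL-28, and log2 0.26 over both (SE 0.28, adjusted p = 0.718). The difference between the lines in this ratio was not tested, since each rests on 1 library a group.

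**Figure D4:**
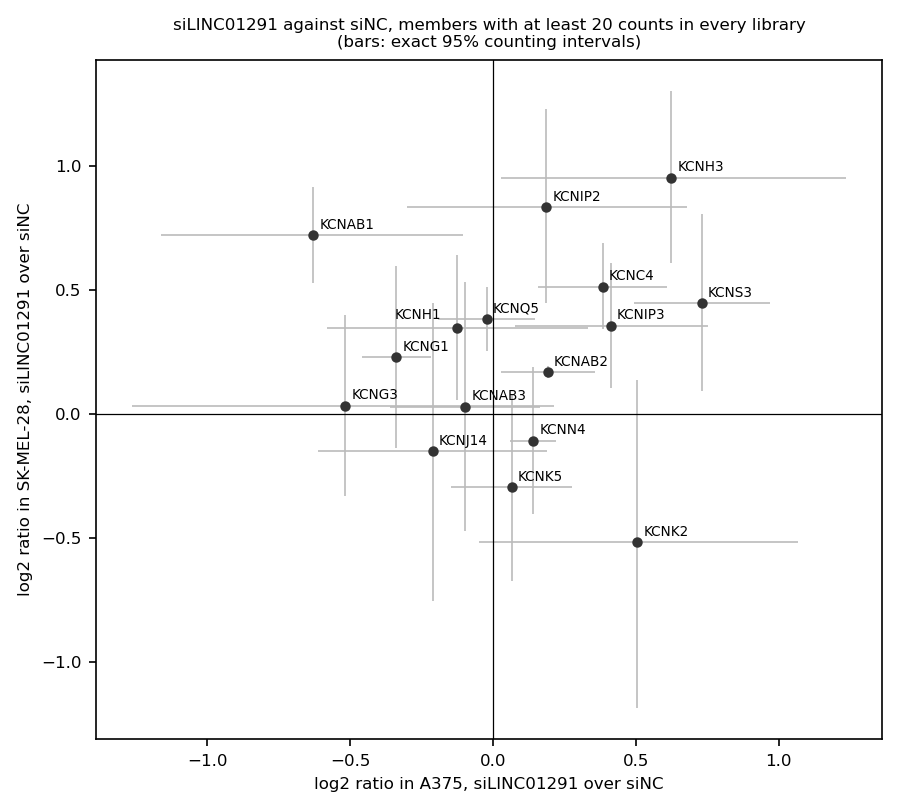
Log2 ratio of siLINC01291 to siNC in SK-MEL-28 (y axis) against that in A375 (x axis) for 16 members with at least 20 counts in every library; bars are exact 95% intervals for counting error. KCNH3, KCNS3, KCNC4, KCNIP3 and KCNAB2 lie right of and above 0 with both bars clear of it, and KCNAB1 lies at the upper left; 11 members had fewer counts in at least 1 library and are not drawn.

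Words of 7 bases, CTATGAA and TCTATGA, had gone with lower levels after siLINC01291 in an earlier search of these data, so the members' 3′ untranslated regions were searched for them. Either word was present in 2 of 28 members, 7.14%, and in 1765 of 12238 searched genes, 14.4%. Both members hold the joined word, shown in capitals within 30 bases of the transcript (GENCODE 29, 5′ to 3′).
KCNAB3 site, from base 1184 of 1243: ttcctcctcttTCTATGAAagacttagcta
KCNN3 site, from base 3627 of 10521: gtcataaagtgTCTATGAActgctcttgcc

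KCNAB3 had 242 counts in siLINC01291 against 243 in siNC in A375, and 71 in siLINC01291 against 68 in siNC in SK-MEL-28 (log2 -0.05, SE 0.18, adjusted p = 0.932), and KCNN3 was above siNC in A375, as given above. Over the searched genes that were also tested, the median log2 change was -0.11 with either word (1765 genes) and 0.02 without (10446 genes). The words had been picked on these data for going with lower levels, so that difference was built in and is no separate support.

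Other genes of ion and membrane potential control were given by lists. Of all genes tested, 35.2% were called higher and 35.5% lower in SK-MEL-28, and 1.47% were called with siLINC01291. These shares stand beside the counts of every list that follows, and no list was tested as a set. Of 6 listed channel partners outside the KCN symbols, 5 were higher and 1 was lower in SK-MEL-28, with a median log2 difference of 0.39 beside -0.02 for all genes tested. CALM2, a gene for calmodulin, the calcium sensor of the KCNN channels, was the member called lower in SK-MEL-28 (log2 -0.56, SE 0.09, adjusted p = 0.000766). CALM2 was also the member of that list called with siLINC01291, at 12965 counts in siLINC01291 against 16385 in siNC in A375, and 6583 in siLINC01291 against 10143 in siNC in SK-MEL-28 (log2 -0.54, SE 0.09, adjusted p = 0.0348). Of the 6 listed genes of the sodium-potassium pump, which builds the potassium gradient, 3 were higher and 3 lower in SK-MEL-28 (median -0.24). ATP1B1, a beta subunit of the pump, was lower in SK-MEL-28 (log2 -3.48, SE 0.14, adjusted p = 6.10e-07). FXYD3, a pump regulator named after its values were seen, was the gene of the list called with siLINC01291, at 63 counts in siLINC01291 against 17 in siNC in A375, and 263 in siLINC01291 against 54 in siNC in SK-MEL-28 (log2 2.10, SE 0.23, adjusted p = 0.00905).

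Of 15 genes listed as calcium entry channels and sensors, 7 were higher and 5 lower in SK-MEL-28 (median 0.26), and none was called with siLINC01291. TRPM1, a channel of melanocytes and retina, had counts of 8027 (siLINC01291) and 5350 (siNC) in SK-MEL-28, against 12 (siLINC01291) and 7 (siNC) in A375 (log2 9.73, SE 0.16, adjusted p = 2.80e-08), and TRPV2 an FPKM of 66.7 (siLINC01291) and 59.9 (siNC) in SK-MEL-28, against 10.4 (siLINC01291) and 9.83 (siNC) in A375 (log2 2.83, SE 0.10, adjusted p = 2.38e-07). Of 10 listed cation-chloride cotransporters and their kinases, 3 were higher and 5 lower in SK-MEL-28 (median -0.18), and none was called with siLINC01291. Of 5 LRRC8 subunits of the volume-regulated anion channel, 1 was higher and 1 lower in SK-MEL-28 (median -0.02). LRRC8B, named after its values were seen, was the gene called with siLINC01291, at 93 counts in siLINC01291 against 253 in siNC in A375, and 103 in siLINC01291 against 454 in siNC in SK-MEL-28 (log2 -1.87, SE 0.20, adjusted p = 0.00838). Its 3′ untranslated region holds a word of the search above, as did those of 14.4% of the searched genes. The words were picked on these data, so that match is no separate support, and a part of the word was not tested. Of the 2 listed HCN and cyclic nucleotide-gated channels, neither was called in either contrast (median -0.13 between the lines).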

How the data were processed

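Per the labels' protocols, polyadenylated RNA was selected on oligo(dT) beads; fastp cleaned the reads, ribosomal reads were removed, HISAT2 aligned the rest, StringTie added new transcripts and HTSeq counted. The submitters' processing notes name hg19, DESeq2 and edgeR, with no role for any of them. The deposited counts are raw read numbers of each gene. The deposited FPKM are library-scaled counts over a single length per gene, which was recovered from them. The deposited TPM, which share 1 column sum, and the deposited CPM, taken over each library's whole total, were not compared. Counts outside the table made up 0.215 to 0.343% of a library.

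The 28 members and the 12 other lists were chosen with earlier results of these data known, and the list of words in 3′ untranslated regions was picked on these data. Values in every library were printed for members with an FPKM of at least 1 in any library or a call; of the other lists, up to 4 genes with the highest mean FPKM were named, and others are marked. A few genes that meet these rules, 1 of the members among them, are not reported here by name, though they are included in the counts and sums. Genes with a mean of at least 10 counts (16207, with all 28 members) were fitted by edgeR 4.0.16 (R 4.3.3) with cell line and siRNA as terms, TMM factors, the quasi-likelihood test and Benjamini-Hochberg adjustment at 0.05, leaving 1 residual degree of freedom. No label says that libraries came from separate cultures, so p-values measure the spread between these 4 libraries. Single pairs were given as ratios with TMM factors and exact binomial 95% intervals, which cover counting error only; the 2-fold counts used a prior count of 2. Alternatives were DESeq2 1.42.0, RLE factors, other filters, limma 3.58.1 on log2(FPKM + 1), the fits without a term, and prior counts. Promoters came from RefSeq (GRCh38.p14), coordinates and untranslated regions from GENCODE 29 (GRCh38), and motifs were searched with Python 3.11.15.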

Additional observations from a re-analysis of the deposited data

Results flagged for a closer look

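KCNAB1, a beta subunit of voltage-gated channels, was singled out because its 2 lines lay on opposite sides of siNC with siLINC01291. The log2 ratio in SK-MEL-28 minus that in A375 was 1.33. Its ratio of siLINC01291 to siNC was 1.65 in SK-MEL-28 and 0.646 in A375, with counting intervals of 1.44 to 1.89 and of 0.447 to 0.929. The difference between the lines was not tested, because each line has 1 library a group.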

How the results depend on the processing

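The contrast between the lines kept the direction and the side of the threshold of all 26 called members with RLE factors, without a count filter, with limma on log2(FPKM + 1) and without the siRNA term. DESeq2 gave 11 members higher and 12 lower, without KCNIP2, KCNJ14 and KCNV2, beside 27.8 and 26.2% of all genes. A filter of an FPKM of at least 1 in 2 libraries left 14 members in the fit, of which 7 were higher and 7 lower in SK-MEL-28, 7 and 6 of them by at least 2-fold, beside 36.1% of all genes called higher and 36.3% called lower in that fit. On log2(FPKM + 1), which shrinks low genes, 4 members were at least 2-fold higher and 3 lower, against 11 and 11 on counts; that scale moved the median of all genes to -0.14. For siLINC01291 against siNC no member was called in any of these fits, and the lowest adjusted p of a member ran from 0.0569 without a filter to 1.00 without the cell line term. Over all genes the calls with siLINC01291 varied: 75 higher and 164 lower as reported, 30 and 91 with the FPKM filter, 5 and 28 with limma on log2(FPKM + 1), 146 and 238 without a filter, and 0 and 0 in edgeR without the cell line term, where 52 genes had an unadjusted p under 0.05 and DESeq2, with that term, called 94 and 210. The cause of these shifts was not tested, except that the FPKM filter tests fewer members. With a prior count of 0.5 in place of 2, 1 member was at least 2-fold higher in the SK-MEL-28 pair, against 0. Scaling by library size only moved the median of all genes in the siNC pair of the lines to -0.21 and left 8 members at least 2-fold higher and 13 lower, against 9 and 12. Depth limits the members with few counts, above all KCNE4, KCNK7, KCNJ12 and KCNN3 in SK-MEL-28 and KCNK13, KCNN2 and KCNJ10 in A375. The siRNA contrast is paired by cell line in the reported fit, and the fit without the cell line term is its unpaired form; the labels give no other replicate numbers to pair by.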

Other observations

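KCNH1-IT1, a transcript from within the KCNH1 locus that the naming rule does not take in, had 44 counts in SK-MEL-28 siLINC01291, 43 in SK-MEL-28 siNC, 43 in A375 siLINC01291 and 59 in A375 siNC. It was not called between the lines (log2 0.06, SE 0.26, adjusted p = 0.860, edgeR's quasi-likelihood test), while its host KCNH1 was 2.92-fold higher in SK-MEL-28. The difference between the pair of genes was not tested.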
